A study of Mus musculus with 2 samples.

Results

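The endoplasmic reticulum (ER) stress and protein folding genes examined here are 34 named genes of the 31053 gene rows in the deposited tables. They were taken by name, through their Ensembl IDs, and all 34 were found. They fall into 9 arms. There are 3 stress sensors, 3 transcription factors, 3 targets of ATF4 and CHOP, 7 HSP70 and HSP90 chaperones with their cofactors, and 2 stress-induced secreted proteins. The others are 2 lectin chaperones, 4 protein disulfide isomerases, 6 genes of ER-associated degradation, and 4 genes of the translocon and the oligosaccharyltransferase.

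The ER folds, glycosylates and checks proteins bound for the membrane and for secretion. When unfolded proteins build up there, the sensors IRE1 (Ern1), PERK (Eif2ak3) and ATF6 start the unfolded protein response, which slows translation and induces chaperones, degradation factors and the transcription factors XBP1, ATF4 and CHOP (Ddit3). Alveolar epithelial type II (AE2) cells make and secrete surfactant, whose protein components pass through this compartment.

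Lung cells came from C57BL/6JRj mice of 3 months (young) and 18 months (old). The mice received saline (control) or 2.5 mg/kg of lipopolysaccharide (LPS), the endotoxin of Gram-negative bacteria, 24 h before the lungs were taken. Lungs were lavaged and digested with dispase, airways filled with agarose were taken out, and cells bearing the epithelial surface protein EpCAM were sorted without dead cells. All 4 groups of 1 experiment, each marked by its own hashtag antibody, shared 1 droplet lane, and there were 2 such experiments, so that each group has 2 libraries, named replicate 1 and 2 by lane. How many mice entered a library and by which route LPS was given are not stated in the labels, and p-values therefore measure only the spread between these libraries.

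The 8 libraries held 14048 barcodes and 6228266 to 15435789 unique molecular identifiers (UMIs, counts of single captured transcripts) each, and 11232 cells were kept. Libraries shared 0 barcodes within a lane and 2 between the lanes. Clusters were named from marker genes, and a named class is called "like" its cell type because it rests on transcripts alone. The AE2-like class had all 12 of its markers detected and 739 to 1417 cells per library. Ciliated-like cells numbered 52 to 266 per library and club/secretory-like cells 5 to 69. UMIs were summed per library and class, and levels are given as CPM, the UMIs of a gene scaled by the total of that sum after TMM scaling between libraries. Classes were normalized separately, so a level in one class set beside a level in another is a description. A higher CPM in a class can come from more transcripts per cell or from a change in which cells make up the class, and the 2 cannot be told apart in the sums. The median UMIs per AE2-like cell were 5722 to 7095 in the control libraries and 7602 to 9086 in the LPS libraries.

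The windows around the start of these genes were searched for the short sequences that factors of the response are known to bind. RefSeq start-site windows on GRCm38.p6 (250 bases before to 50 after the start) were found for 29 of the 34 genes. The windows of Atf6, Hyou1, Manf, Derl1 and Sec61a1 were not in the table. The ER stress response element, whose parts CCAAT and CCACG stand 9 bases apart on either strand, is bound by ATF6 together with the CCAAT-binding factor NF-Y. It was present in the windows of 8 of the 29 genes (27.6%) and of 37 of all 27025 genes (0.137%). The 9 sites are shown because they belong to genes of 5 arms, and both parts are in capitals, on the strand of the gene with 5 more bases on each side. In Creld2, Calr and the lower Hsp90b1 site the element lies in reverse.

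Hspa5, chr2:34772020-34772048, plus strand: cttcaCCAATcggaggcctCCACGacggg
Dnajc3, chr14:118937822-118937850, plus strand: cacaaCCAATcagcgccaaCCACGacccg
Hsp90b1, chr10:86705633-86705661, minus strand: caagcCCAATcgcaaggagCCACGcttcg
Hsp90b1, chr10:86705528-86705556, minus strand: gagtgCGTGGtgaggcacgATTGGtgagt
Creld2, chr15:88819515-88819543, plus strand: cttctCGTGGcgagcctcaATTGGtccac
Calr, chr8:84847070-84847098, minus strand: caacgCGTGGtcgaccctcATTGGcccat
Canx, chr11:50325795-50325823, minus strand: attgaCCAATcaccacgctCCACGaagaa
Pdia6, chr12:17266486-17266514, plus strand: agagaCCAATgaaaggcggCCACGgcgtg
Syvn1, chr19:6046527-6046555, plus strand: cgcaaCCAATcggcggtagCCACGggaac

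The first base of the element lay 65 bases before the start in Hspa5, 44 in Syvn1, 98 in Pdia6, 105 in Dnajc3, 126 in Creld2, 145 in Canx and 162 in Calr. Hsp90b1 held 2 copies, at 212 and 107 bases. The related element ERSE-II (ATTGG and CCACG with 1 base between) was in the windows of Herpud1 and Dnajb11, 6.9% of the 29 and 0.0444% of all. In Dnajb11 it read ATTGGcCCACG and lay just after the start. The ATF4 composite site TGATGNAA was in Asns, Chac1, Herpud1 and Trib3 (13.8% of the 29, 4.51% of all), among them all 3 targets of ATF4 and CHOP. In Trib3 it lay after the start. The sites of the 2 targets with a match before the start are shown, again with the match in capitals.

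Chac1, chr2:119351044-119351061, plus strand: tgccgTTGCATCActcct
Asns, chr6:7693220-7693237, minus strand: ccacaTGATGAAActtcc

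The site TGACGTGG, bound by XBP1 and ATF6, was in none of the 29 windows and in 0.714% of all. A match is a run of letters in this window, and factor binding was not measured. Because the members were picked as genes of the response, their shares beside those of all genes are a description without a test.

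The 250 bases upstream of Herpud1, a degradation gene, are shown because they hold both kinds of site, the ATF4 site on the opposite strand (TTGCATCA) and ERSE-II nearer the start, in capitals. Those of Creld2, a secreted ER protein, hold 1 ER stress response element.

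Herpud1, chr8:94386179-94386428, plus strand: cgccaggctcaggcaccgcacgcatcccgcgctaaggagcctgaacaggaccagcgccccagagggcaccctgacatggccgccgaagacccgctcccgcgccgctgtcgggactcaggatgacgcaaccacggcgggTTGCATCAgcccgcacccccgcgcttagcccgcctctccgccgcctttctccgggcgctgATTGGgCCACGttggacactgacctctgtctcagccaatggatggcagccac
Creld2, chr15:88819396-88819645, plus strand: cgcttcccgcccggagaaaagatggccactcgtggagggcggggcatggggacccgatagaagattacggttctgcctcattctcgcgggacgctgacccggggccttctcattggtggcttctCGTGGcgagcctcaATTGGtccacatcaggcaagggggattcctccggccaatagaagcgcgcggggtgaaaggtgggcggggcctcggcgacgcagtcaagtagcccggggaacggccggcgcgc

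In AE2-like cells all 4 disulfide isomerases, both secreted ER proteins, all 4 translocon genes and 6 of the 7 HSP70 and HSP90 chaperones and cofactors rose after LPS in young mice, and in old mice the same genes and the seventh, Hyou1, did. Of the lectin chaperones Calr rose at both ages and Canx was called at neither. The 3 sensors gave 1 lower call in young mice and 0 calls in old mice. The 2 tested targets of ATF4 and CHOP gave 0 calls in young mice and 1 higher call in old mice. Lists this short do not set these arms apart from the shares of all genes given below. Of the 33 members tested (Chac1 was too sparse), 23 rose and 1 fell in young mice. Over all 11371 genes tested 21.9% were called higher and 18.4% lower. In old mice 25 members rose and 1 fell, beside 25.1% and 23.1% of all genes. The median log2 fold change of the members was 0.63 in young and 0.71 in old mice, and that of all genes was -0.01 in both. All 4 LPS libraries lay above all 4 controls for 24 of the 33 members (25.2% of all genes), and below them for 1, Sel1l (23.6%). The 24 and 26 calls rest on edgeR with a Benjamini-Hochberg threshold of 0.05, and DESeq2 called 23 members at each age. At each age 23 of these calls held in all 17 alternative settings.

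**Figure D1:**
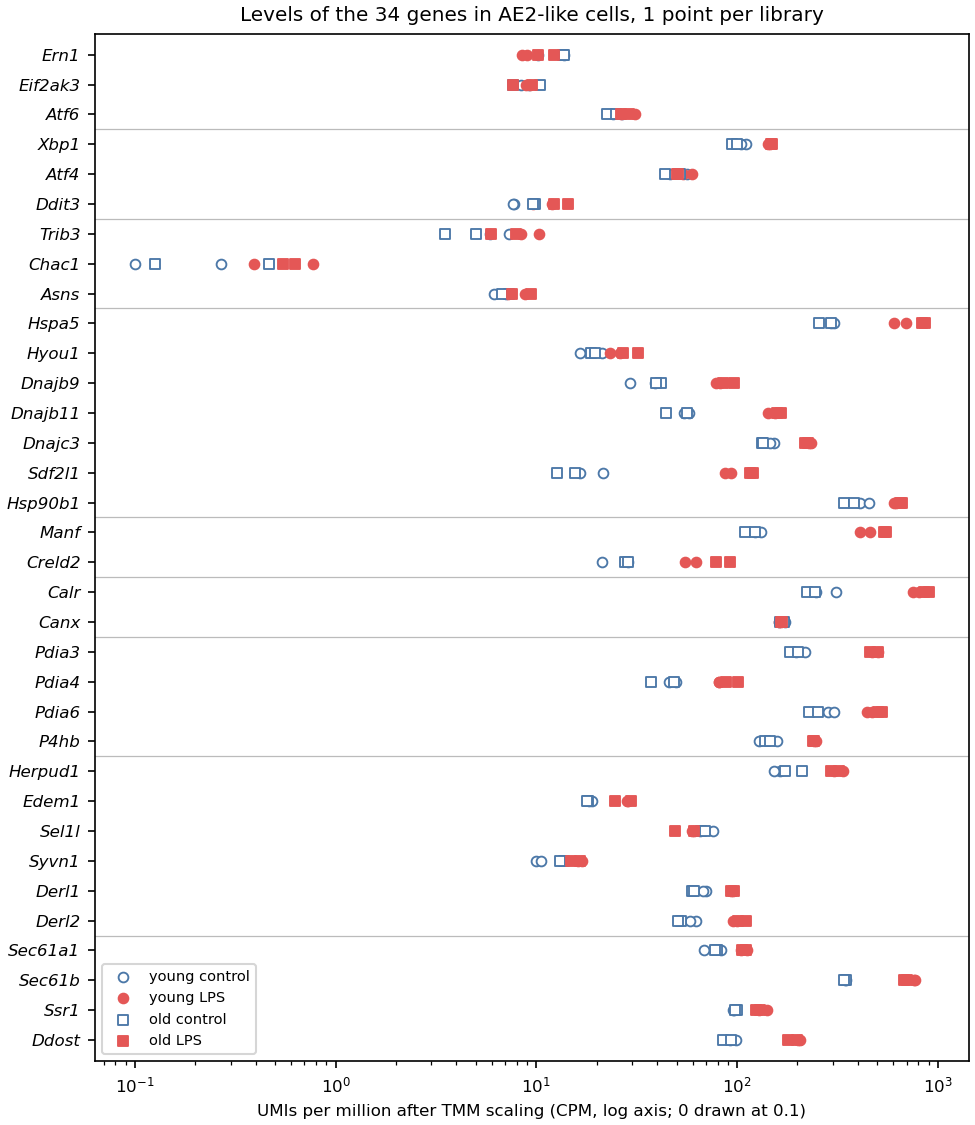
Levels of the members in AE2-like cells, in CPM on a log axis, 1 point per library (young and old, control and LPS), with a value of 0 drawn at 0.1. The LPS points of Hspa5 (605 to 859 CPM) stand above its controls (255 to 302), while those of Canx (161 to 167 CPM after LPS, 162 to 173 in controls) lie among them.

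The 3 sensors of the ER membrane gave 1 call, a fall of Ern1 in young mice. Atf6 (chr1:170704674-170867771, minus strand), whose protein is cut in the Golgi to release a transcription factor, had 26.7 and 24.1 CPM in young control, 26.6 and 31.1 in young LPS, 22.6 and 24.8 in old control, and 26.6 and 29.1 in old LPS. These values overlap, and the log2 difference was 0.20 (SE 0.13, adjusted p = 0.251) in young and 0.23 (SE 0.13, adjusted p = 0.143) in old mice. Ern1 (chr11:106394650-106487852, minus strand), the kinase and RNase that splices Xbp1 mRNA, had 10.2 and 13.8 CPM in young control, 9.03 and 8.45 in young LPS, 13.6 and 13.7 in old control, and 10.2 and 12.2 in old LPS. The young LPS pair is the lowest of the 4 pairs, yet old LPS 1 equals young control 1 to the digits given. Ern1 was called lower in young mice, by log2 -0.50 (SE 0.19, adjusted p = 0.048), and gave -0.28 (SE 0.17, adjusted p = 0.186) in old mice. The young call is lost in 5 of the 8 removals of 1 library (young LPS 1, old control 1, young control 2, young LPS 2 or old control 2; log2 -0.53 to -0.23, adjusted p = 0.0657 to 0.549), and it is also lost with DESeq2, with the lane as a block (log2 -0.48, adjusted p = 0.0508), with another scaling, with no filter on low counts and after thinning. Eif2ak3, the kinase that phosphorylates eIF2alpha, ran from 7.65 to 10.4 CPM in controls and 7.64 to 9.47 after LPS, and it was not called at either age.

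Among the transcription factors, Xbp1 (chr11:5520659-5525893, plus strand), which drives chaperone and secretory genes once its mRNA is spliced, had 110.2 and 105 CPM in young control, 143 and 146 in young LPS, 94.4 and 100.4 in old control, and 148 and 149.6 in old LPS. Each LPS library lay above every control, and Xbp1 rose by log2 0.43 (SE 0.09, adjusted p = 0.0015) in young and 0.61 (SE 0.09, adjusted p = 4.3e-05) in old mice. Gene counts do not separate the spliced from the unspliced form. Atf4 (chr15:80255184-80257541, plus strand), whose protein is made mainly through translational control, had 56.1 and 46.4 CPM in young control, 53.6 and 59.5 in young LPS, 52.0 and 43.9 in old control, and 50.3 and 51.0 in old LPS. LPS and control values are interleaved, with log2 differences of 0.16 (SE 0.12, adjusted p = 0.307) in young and 0.08 (SE 0.12, adjusted p = 0.576) in old mice. Ddit3, which codes for the pro-apoptotic factor CHOP, ranged from 7.62 to 9.81 CPM in controls and 9.66 to 14.4 after LPS. It rose in old mice (log2 0.46, SE 0.17, adjusted p = 0.0358) and gave 0.49 (SE 0.20, adjusted p = 0.0571) in young mice. The old call is lost without old control 1, old control 2 or old LPS 2 (log2 0.33 to 0.47, adjusted p = 0.113 to 0.169), and also with DESeq2.

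The targets of ATF4 and CHOP were low in AE2-like cells. Asns (chr6:7675169-7693254, minus strand), asparagine synthetase, had 7.04 and 6.15 CPM in young control, 8.77 and 7.25 in young LPS, 7.32 and 6.78 in old control, and 9.37 and 7.57 in old LPS. Its groups overlap and the log2 difference was 0.29 (SE 0.22, adjusted p = 0.313) in young and 0.26 (SE 0.20, adjusted p = 0.288) in old mice. Trib3 (chr2:152337422-152344032, minus strand), a pseudokinase that restrains ATF4 and CHOP, had 7.28 and 5.88 CPM in young control, 8.37 and 10.3 in young LPS, 4.98 and 3.51 in old control, and 7.92 and 5.92 in old LPS. It rose in old mice by log2 0.71 (SE 0.25, adjusted p = 0.027), but both old LPS values lie between the lowest young control and the highest young LPS value. The call is lost without old LPS 1 or old control 2 (log2 0.47 to 0.50, adjusted p = 0.154 to 0.264), and also with DESeq2 and after thinning. In young mice the difference was 0.55 (SE 0.24, adjusted p = 0.0836). Chac1, a glutathione-degrading enzyme, had 0 to 0.769 CPM in any library and was not tested.

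The chaperone arm held the largest fold change of all the members. Hspa5 (chr2:34771970-34777547, plus strand) codes for BiP, the main HSP70 of the ER lumen, which also holds the sensors inactive. It had 295 and 302 CPM in young control, 694 and 605 in young LPS, 255 and 295 in old control, and 838 and 859 in old LPS. Every LPS library held more than every control, and old LPS more than young LPS. Hspa5 rose by log2 1.12 (SE 0.10, adjusted p = 3e-07) in young and 1.62 (SE 0.10, adjusted p = 4.18e-09) in old mice, which is 2.17-fold and 3.08-fold. Hsp90b1 (chr10:86690209-86705509, minus strand), the HSP90 of the ER known as GRP94, had 412 and 453 CPM in young control, 621 and 606 in young LPS, 343 and 382 in old control, and 649 and 665 in old LPS. Its LPS libraries all lie above its controls, and it rose by log2 0.50 (SE 0.09, adjusted p = 0.000466) in young and 0.86 (SE 0.09, adjusted p = 1.94e-06) in old mice.

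Sdf2l1 (chr16:17130138-17132383, minus strand), a partner of BiP and its J-domain cofactors, had 16.5 and 21.4 CPM in young control, 93.0 and 87.1 in young LPS, 12.6 and 15.6 in old control, and 116 and 119.7 in old LPS. This is the largest fold change among the members at both ages, 4.64-fold in young and 8.29-fold in old mice, and its groups are far apart. On the log2 scale Sdf2l1 rose by 2.22 (SE 0.13, adjusted p = 1.4e-09) in young and 3.05 (SE 0.13, adjusted p = 4.27e-11) in old mice. Dnajb11 (chr16:22857845-22879634, plus strand), a J-domain cofactor that hands unfolded clients to BiP, had 54.6 and 57.6 CPM in young control, 155 and 143 in young LPS, 44.1 and 56.2 in old control, and 165 and 158 in old LPS. Its lowest LPS value is 143 CPM and its highest control 57.6 CPM. Dnajb11 rose by log2 1.41 (SE 0.11, adjusted p = 7.8e-08) in young and 1.68 (SE 0.11, adjusted p = 8.78e-09) in old mice. Dnajb9 (chr12:44205559-44210326, minus strand), a J-domain protein that represses IRE1, had 39.1 and 29.4 CPM in young control, 82.0 and 78.8 in young LPS, 41.9 and 39.5 in old control, and 84.6 and 96.9 in old LPS. Dnajb9 also separated the treatments, and it rose by log2 1.26 (SE 0.13, adjusted p = 1.06e-06) in young and 1.16 (SE 0.12, adjusted p = 1.08e-06) in old mice. Dnajc3, an inhibitor of PERK and a BiP cofactor, had 133 to 153 CPM in controls and 219 to 234 after LPS, and it rose at both ages. Hyou1, the large HSP70-like nucleotide exchange factor of BiP, ran from 16.5 to 21.3 CPM in controls and 23.2 to 32.3 after LPS. It was called in old mice (log2 0.63, SE 0.14, adjusted p = 0.00167) and missed the threshold in young mice (log2 0.35, SE 0.15, adjusted p = 0.0764), where it was called with the lane as a block (log2 0.37, adjusted p = 0.0389).

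Both secreted ER proteins rose. Manf (chr9:106838312-106891979, minus strand), a small neurotrophic factor that binds BiP and leaves the cell under ER stress, had 123 and 131 CPM in young control, 458 and 409 in young LPS, 110.1 and 123 in old control, and 549 and 537 in old LPS. Its lowest LPS library held 409 CPM and its highest control 131 CPM. Manf rose by log2 1.77 (SE 0.10, adjusted p = 1.11e-09) in young and 2.22 (SE 0.10, adjusted p = 9.75e-11) in old mice, or 3.41-fold and 4.65-fold. Creld2 (chr15:88819646-88826683, plus strand), a secreted EGF-like protein with disulfide isomerase activity, had 21.4 and 28.7 CPM in young control, 62.7 and 54.8 in young LPS, 27.6 and 28.7 in old control, and 78.3 and 92.6 in old LPS. All LPS values exceed all controls, with old LPS above young LPS in both lanes. Creld2 rose by log2 1.19 (SE 0.14, adjusted p = 6.56e-06) in young and 1.60 (SE 0.13, adjusted p = 1.09e-07) in old mice.

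The lectin chaperones hold glycoproteins during folding, and 1 of the 2 was called at each age. Calr (chr8:84841850-84846934, minus strand), the soluble calreticulin, had 247 and 312 CPM in young control, 808 and 754 in young LPS, 222 and 244 in old control, and 904 and 849 in old LPS. The LPS libraries stand apart from the controls, and Calr rose by log2 1.48 (SE 0.11, adjusted p = 3.29e-08) in young and 1.91 (SE 0.11, adjusted p = 1.75e-09) in old mice. Canx (chr11:50293961-50325673, minus strand), its membrane-bound partner calnexin, had 162 and 173 CPM in young control, 161 and 166 in young LPS, 164 and 171 in old control, and 167 and 166 in old LPS. All 8 values of Canx lie between 161 and 173 CPM, and the log2 difference was -0.04 (SE 0.09, adjusted p = 0.773) in young and -0.01 (SE 0.09, adjusted p = 0.932) in old mice. Both genes carry an ER stress response element in the sequences above.

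All 4 protein disulfide isomerases rose. Pdia3 (chr2:121413775-121438687, plus strand), the partner of calreticulin known as ERp57, had 196 and 218 CPM in young control, 504 and 468 in young LPS, 183 and 200.4 in old control, and 502 and 461 in old LPS. Young and old LPS values overlap, and all are above the controls. Pdia3 rose by log2 1.23 (SE 0.10, adjusted p = 7.8e-08) in young and 1.33 (SE 0.10, adjusted p = 3.27e-08) in old mice. Pdia6 (chr12:17266545-17284770, plus strand), which damps IRE1 signalling, had 282 and 303 CPM in young control, 471 and 446 in young LPS, 228 and 253 in old control, and 527 and 506 in old LPS. Its treatments do not overlap, and Pdia6 rose by log2 0.65 (SE 0.09, adjusted p = 4.66e-05) in young and 1.10 (SE 0.09, adjusted p = 1.36e-07) in old mice. Pdia4 ran from 37.1 to 49.7 CPM in controls and 80.9 to 101 after LPS, and P4hb, which also serves prolyl hydroxylase, from 129 to 158 CPM in controls and 239 to 247 after LPS. Both were called higher at both ages.

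In ER-associated degradation, 5 of 6 members rose in young mice, and 4 rose and 1 fell in old mice. Herpud1 (chr8:94386438-94395377, plus strand), a membrane scaffold of the ubiquitin ligase complex, had 164 and 153 CPM in young control, 305 and 337 in young LPS, 211 and 173 in old control, and 295 and 321 in old LPS. LPS values all exceed the controls, and old control 1 is the highest control. Herpud1 rose by log2 1.02 (SE 0.11, adjusted p = 1.97e-06) in young and 0.68 (SE 0.11, adjusted p = 7.8e-05) in old mice. Derl1 (chr15:57869502-57892448, minus strand), a channel component for exported clients, had 70.1 and 67.5 CPM in young control, 93.5 and 95.0 in young LPS, 60.0 and 61.4 in old control, and 96.1 and 92.9 in old LPS. Its treatments do not overlap either, and Derl1 rose by log2 0.46 (SE 0.09, adjusted p = 0.001) in young and 0.64 (SE 0.09, adjusted p = 3.12e-05) in old mice. Derl2 rose at both ages (50.6 to 62.1 CPM in controls and 95.0 to 110.3 after LPS), as did Edem1, which marks glycoproteins for disposal (17.9 to 19.0 CPM in controls and 24.6 to 29.7 after LPS). Syvn1, the ubiquitin ligase HRD1, rose in young mice (log2 0.68, SE 0.16, adjusted p = 0.00311) and gave 0.23 (SE 0.14, adjusted p = 0.197) in old mice. Its adaptor Sel1l was lower in every LPS library (65.5 to 76.3 CPM in controls and 49.2 to 61.3 after LPS). Sel1l fell in old mice by log2 -0.30 (SE 0.11, adjusted p = 0.0409) and gave -0.25 (SE 0.12, adjusted p = 0.101) in young mice, and the old call is lost in 7 of the 8 removals, all but that of old LPS 2 (log2 -0.32 to -0.14, adjusted p = 0.0551 to 0.289).

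All 4 translocon and oligosaccharyltransferase genes rose. Sec61b (chr4:47474658-47483242, plus strand), a subunit of the protein-conducting channel, had 345 and 349.6 CPM in young control, 767 and 765 in young LPS, 350.1 and 342 in old control, and 704 and 682 in old LPS. The young LPS pair is the highest, and no LPS value comes near a control. Sec61b rose by log2 1.14 (SE 0.09, adjusted p = 3.88e-08) in young and 1.00 (SE 0.09, adjusted p = 1.53e-07) in old mice. Ddost (chr4:138304730-138312628, plus strand), a subunit of the enzyme that transfers N-glycans to nascent chains, had 92.2 and 98.4 CPM in young control, 205 and 201 in young LPS, 85.5 and 93.5 in old control, and 198 and 180.4 in old LPS. Ddost rose by log2 1.09 (SE 0.10, adjusted p = 2.57e-07) in young and 1.08 (SE 0.10, adjusted p = 2.08e-07) in old mice, with all LPS values above the controls. The channel core Sec61a1 ran from 68.7 to 82.7 CPM in controls and 105 to 112 after LPS and Ssr1, a subunit of the translocon-associated TRAP complex, from 95.6 to 100.3 CPM in controls and 124 to 141 after LPS. Both were called at both ages.

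**Figure D2:**
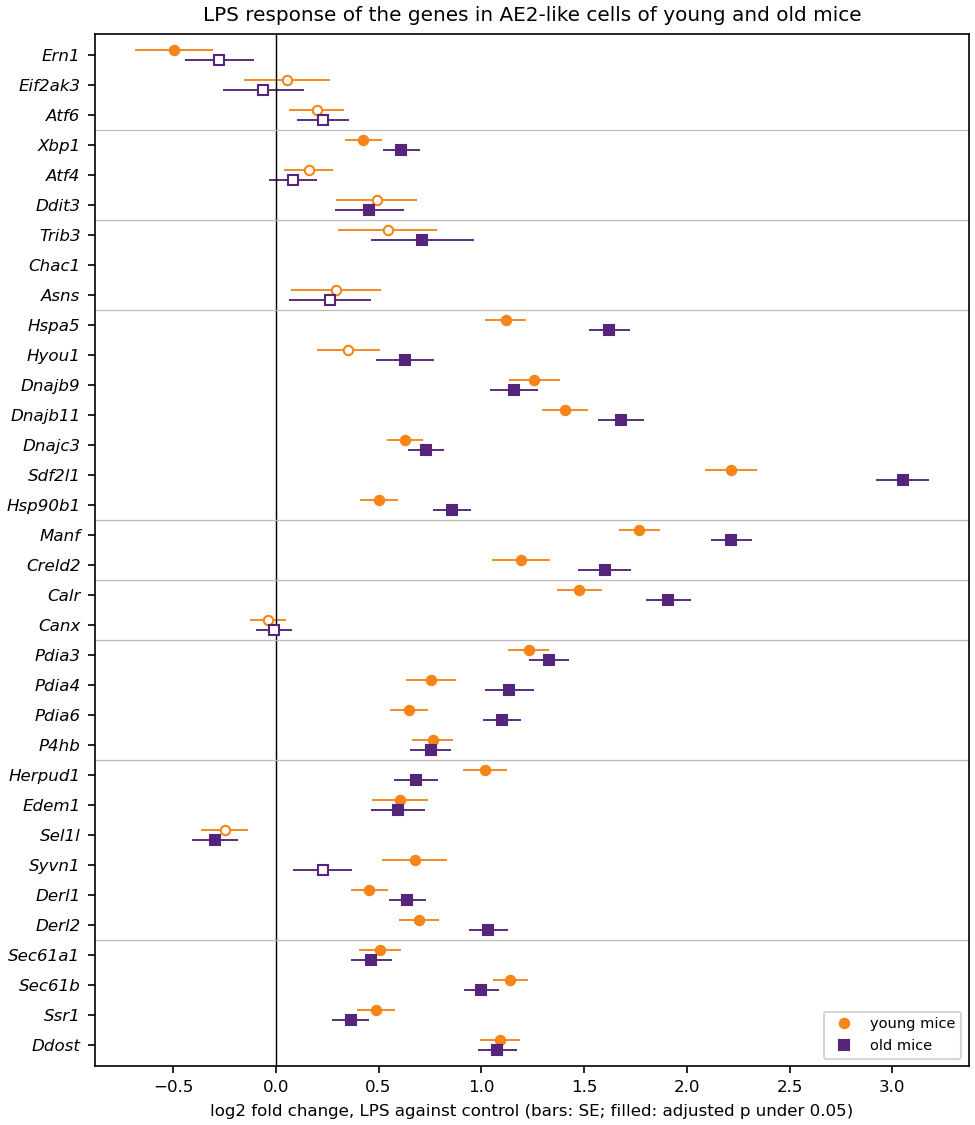
Log2 fold change after LPS of each tested member in AE2-like cells, grouped by arm, for young and old mice, with bars of 1 SE from edgeR and filled points where the adjusted p is under 0.05. Sdf2l1 reaches 2.22 in young and 3.05 in old mice, Manf 1.77 and 2.22, while Canx, Eif2ak3 and Atf4 lie near 0.

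The wider machinery was read through 6 lists of non-members. Of 25 other translocation, glycosylation and signal peptidase genes, 24 rose in young and 23 in old mice and 0 fell, with a median log2 fold change of 0.62 in young and 0.68 in old mice. Sec11c, the catalytic subunit of signal peptidase, had in young mice 115 ± 5.98 CPM in control and 305 ± 4.36 after LPS (mean ± SD, n = 2; log2 fold change 1.40, SE 0.10, adjusted p = 1.36e-08). Ssr4, of the TRAP complex, had in old mice 175 ± 1.03 CPM in control and 464 ± 103 after LPS (mean ± SD, n = 2; log2 fold change 1.41, SE 0.12, adjusted p = 3.05e-07). The background shares are those given above for all genes. Of 20 ER export and retrieval genes, 15 rose at each age and 1 fell in old mice, with medians of 0.60 and 0.68. Surf4, a cargo receptor, had in young mice 52.1 ± 5.09 CPM in control and 117 ± 3.58 after LPS (mean ± SD, n = 2; log2 fold change 1.15, SE 0.11, adjusted p = 4.35e-07).

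Of 29 other folding enzymes and chaperones, 12 rose and 1 fell in young mice and 17 rose in old mice, with medians of 0.35 and 0.34. Erp44, which retains cargo in the early secretory pathway, had in old mice 44.8 ± 0.747 CPM in control and 106 ± 5.08 after LPS (mean ± SD, n = 2; log2 fold change 1.24, SE 0.10, adjusted p = 4.8e-08). Nucb2, a calcium-binding protein, had in young mice 169.7 ± 11.2 CPM in control and 344 ± 3.76 after LPS (mean ± SD, n = 2; log2 fold change 1.02, SE 0.10, adjusted p = 4.89e-07). Of 20 other degradation genes, 10 rose and 1 fell in young mice, and 11 rose in old mice. Edem2, a mannosidase-like factor, had in young mice 27.4 ± 1.96 CPM in control and 53.1 ± 4.03 after LPS (mean ± SD, n = 2; log2 fold change 0.95, SE 0.12, adjusted p = 9.33e-06). Of 29 other genes of the integrated stress response, 13 rose and 2 fell in young mice, and 11 rose and 4 fell in old mice. Eif2ak2, the RNA-activated and interferon-inducible kinase PKR, had in old mice 16.8 ± 0.0957 CPM in control and 45.5 ± 1.42 after LPS (mean ± SD, n = 2; log2 fold change 1.44, SE 0.11, adjusted p = 5.88e-08). Atf5, a relative of ATF4, had in old mice 16.0 ± 2.64 CPM in control and 44.3 ± 8.59 after LPS (mean ± SD, n = 2; log2 fold change 1.47, SE 0.17, adjusted p = 1.16e-05).

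The list headed by membrane-bound factors and proteases also holds Traf2, Crebzf, Bbc3 and Bcl2l11. Of its 11 genes tested, 2 rose and 5 fell in young mice, and 3 rose and 4 fell in old mice. Over all genes 21.9% rose and 18.4% fell in young mice, and 25.1% and 23.1% in old mice. The higher counts of the list are near those shares. Creb3, a factor cut in the Golgi as ATF6 is, had in young mice 21.9 ± 1.04 CPM in control and 64.8 ± 0.833 after LPS (mean ± SD, n = 2; log2 fold change 1.56, SE 0.13, adjusted p = 1.01e-07). Bcl2l11, which codes for the pro-apoptotic protein BIM, fell, with 41.1 ± 6.81 CPM in control and 16.2 ± 3.86 after LPS (mean ± SD, n = 2; log2 fold change -1.34, SE 0.19, adjusted p = 0.000145) in old mice. Bbc3, which codes for the related PUMA, fell as well, with 21.3 ± 5.31 CPM in control and 11.3 ± 2.50 after LPS (mean ± SD, n = 2; log2 fold change -0.89, SE 0.20, adjusted p = 0.00284) in old mice.

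Summed markers of some other cell types were higher after LPS in the AE2-like sums, and not every list is given here. The summed level of the 12 alveolar macrophage markers, none at 0, was 12.7 to 25.6 CPM in controls and 65.8 to 76.6 after LPS. That of the 12 club/secretory markers, also none at 0, was 5813 to 8703 and 13530 to 16120 CPM. Of 6 platelet markers (Gp9, Gp1bb and Tubb1 at 0) the sum was 15.0 to 23.9 and 133 to 203 CPM. The 9 plasma cell markers, the list of a secretory cell rich in these chaperones, summed to 308 to 326 and 272 to 336 CPM, with Igha, Iglv1, Tnfrsf17 and Ighg2b at 0. This sum overlaps between the treatments. It includes Derl3, which is also among the other degradation genes called higher in old mice. The part of these lists in the members' changes was not tested. The surfactant gene Sftpc itself went from 221100 to 254600 CPM in controls to 39120 to 68200 after LPS.

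Between old and young controls, 0 of 33 members were called with edgeR in AE2-like cells (0.651% of all genes in either direction), 8 had an unadjusted p under 0.05, and DESeq2 called 0. After LPS, 3 members were higher in old than in young mice and 0 lower, beside 1.61% and 2.41% of all genes. These were Creld2 (log2 0.54, SE 0.12, adjusted p = 0.0184), Hspa5 (0.39, SE 0.10, adjusted p = 0.0366) and Sdf2l1 (0.39, SE 0.11, adjusted p = 0.0495). Manf stood just outside the threshold at 0.33 (SE 0.10, adjusted p = 0.0683). Within lanes 1 and 2, old LPS exceeded young LPS by log2 0.32 and 0.76 for Creld2, 0.27 and 0.51 for Hspa5, and 0.31 and 0.46 for Sdf2l1. DESeq2 called 0 of the 3. The Hspa5 call (log2 0.29 to 0.49, adjusted p = 0.055 to 0.405) and the Sdf2l1 call (log2 0.34 to 0.44, adjusted p = 0.0775 to 0.375) are each lost in 6 of the 8 removals, all but those of old LPS 1 and old LPS 2. The Creld2 call is lost without young LPS 1 or young LPS 2 (log2 0.45 to 0.64, adjusted p = 0.0548 to 0.242).

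Whether the LPS response itself differed between ages was tested by the interaction. It called 0 of 33 members in AE2-like cells with edgeR (0.66% of all genes in either direction), 9 had an unadjusted p under 0.05, and DESeq2 called 0. The smallest adjusted p was that of Sdf2l1, whose response was larger in old mice by log2 0.84 (SE 0.19, adjusted p = 0.0507). With the lane as a block it became the only member called (log2 0.83, adjusted p = 0.043). Hspa5 followed at 0.51 (SE 0.14, adjusted p = 0.146). A p that misses the threshold does not show that the ages responded alike.

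The AE2-like class held 6 clusters made mostly of LPS cells, and the 2 ages were spread differently over them. Cluster 3, led by Cxcl1, held 5.46% of the young and 33.3% of the old LPS cells of the class, but the old libraries differed, with 46% in old LPS 1 and 21.9% in old LPS 2. Cluster 8, led by Csf3 and Cxcl2, held 0.801% and 18.2% (23.5% in old LPS 1 and 13.4% in old LPS 2), while cluster 5, led by Cxcl10 and Gbp2, held 24.8% and 6.13% (4.24% in old LPS 1 and 7.83% in old LPS 2). Of the LPS cells of the class, 25.1% of old LPS 2 and 3.76% of old LPS 1 lay in the control-dominated clusters, beside 4.85% of young LPS 1 and 11.1% of young LPS 2. The clusters were built from the same counts, through 2000 variable genes, so their levels are a description. Hspa5 was 969 and 1269 CPM in the old LPS libraries in cluster 8, and 469 to 547 CPM over the 4 LPS libraries in cluster 7, led by Itih4. Sdf2l1 was 33.0 to 78.4 CPM in cluster 7 and 83.4 to 189 CPM in the other LPS clusters. In cluster 4, led by Saa3 and Lcn2, which held 21.2% and 15.7%, Hspa5 was 640.0 and 609 CPM in young LPS and 749 and 788 CPM in old LPS. In cluster 6 it was 683 and 634 CPM in young LPS and 562 and 943 CPM in old LPS, so that the old libraries lie on both sides of the young. Of the 5 LPS clusters with levels at both ages, both old libraries lay above both young ones in clusters 3, 4 and 5 and not in clusters 6 and 7. In the control libraries alone, Hspa5 in the control-dominated clusters 0, 1 and 2 was 239 to 359 CPM, below the LPS libraries of clusters 3 to 8. The LPS cells in clusters 0, 1 and 2 were not summed.

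By the pattern over the 8 AE2-like sums, the gene most like Hspa5 among 4574 genes of at least 20 CPM was its fellow member Manf (Pearson r of log2 CPM 0.995). The 5 nearest non-members were Mrpl38 (0.995), Slc26a4, Tm9sf4 and Cox6b1 (0.994 each) and Ostc (0.993). Slc26a4, the anion exchanger pendrin, was 19.0 to 26.9 CPM in controls and 158 to 259 CPM after LPS. Ostc, a subunit of the oligosaccharyltransferase, was 94.1 to 112 and 178 to 239 CPM. The points share libraries, depth and a large treatment effect, and no test is attached.

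In ciliated-like cells over both ages, Xbp1, Atf4, 6 of the 7 HSP70 and HSP90 chaperones and cofactors, and all 4 translocon genes rose after LPS. So did Manf, Calr and 3 of the 4 disulfide isomerases, while 0 of the 6 degradation genes were called. Averaged over both ages, 17 of the 29 tested members rose and 0 fell (9.61% and 7.71% of 7907 genes), with a median of 0.58 beside -0.01 over all genes. By edgeR 19 had an unadjusted p under 0.05, DESeq2 called 11, and 11 of the calls held in every setting. All 4 LPS libraries were above all 4 controls for 13 of the 29 members (10.2% of genes) and below for 0 (8.31%). The class had 2 clusters, and different ones held most of it in the 2 treatments. Cluster 11, led by Sec14l3 and Ccdc153, had 381 control and 58 LPS cells. Cluster 9, led by AU040972 and Gpx2, had 5 control and 460 LPS cells. In cluster 11 levels without TMM scaling are at hand for 1 LPS library, old LPS 2, with 29 cells. Its Xbp1 was 178 CPM (58.9 to 79.0 in controls) and its Calr 641 (365 to 622). Hspa5 at 647.5 CPM (602 to 913), Sdf2l1 at 72.7 (42.1 to 114), Manf at 390 (272 to 468) and Hsp90b1 at 1328 (1162 to 1639) lay within the ranges of young and old controls together. Against old controls 1 and 2 alone, this library was above both for Sdf2l1 (67.7 and 42.1), Manf (282 and 272) and Hsp90b1 (1162 and 1232). For Hspa5 it lay between them (602 and 654). This is a description of 1 library. The 9 plasma cell markers summed to 171 to 224 CPM in the control and 167 to 280 CPM in the LPS libraries of this class, with Iglv1, Tnfrsf17 and Ighg2b at 0.

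Xbp1 in ciliated-like cells had 59.1 and 69.6 CPM in young control, 394 and 467 in young LPS, 74.9 and 71.3 in old control, and 635 and 383 in old LPS. Every LPS library is far above the highest control, and Xbp1 rose by log2 2.78 (SE 0.17, adjusted p = 3.73e-10), or 6.88-fold. Sec61b had 465 and 450.4 CPM in young control, 722 and 702 in young LPS, 475 and 435 in old control, and 709.8 and 744 in old LPS. Its treatments do not overlap, and Sec61b rose by log2 0.65 (SE 0.09, adjusted p = 1.69e-06). Manf had 355 and 464 CPM in young control, 494 and 587 in young LPS, 270.4 and 268 in old control, and 628 and 522 in old LPS. The LPS libraries exceed all controls for Manf, though old controls lie below young controls, and Manf rose by 0.76 (SE 0.11, adjusted p = 1.88e-06).

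Sdf2l1 in this class had 108 and 113 CPM in young control, 106 and 131 in young LPS, 63.2 and 42.8 in old control, and 195 and 170.2 in old LPS. Young LPS values lie on both sides of the young controls, while old LPS values are above all controls. The mean change over both ages was 0.89 (SE 0.15, adjusted p = 4.47e-05). Calr had 529 and 616 CPM in young control, 689 and 598 in young LPS, 347 and 467 in old control, and 839.5 and 708 in old LPS. Young control 2 is above young LPS 2, so the treatments overlap, and Calr rose by 0.58 (SE 0.10, adjusted p = 8.95e-05) over both ages. Pdia4 had 142 and 159 CPM in young control, 164 and 164 in young LPS, 92.5 and 74.9 in old control, and 233 and 190.2 in old LPS. All LPS values of Pdia4 are above all controls, by a narrow step in young mice, and Pdia4 rose by 0.72 (SE 0.13, adjusted p = 0.000146). Of the other calls, Hspa5 is lost without young control 1, old control 1 or old LPS 1 (log2 0.25 to 0.38, adjusted p = 0.0591 to 0.0753), Ssr1 without old control 1, old LPS 1 or young LPS 2 (log2 0.52 to 0.75, adjusted p = 0.0537 to 0.121), Hyou1 without young LPS 1 or old LPS 1 (log2 0.86 to 1.24, adjusted p = 0.0715 to 0.101), and Dnajb9 without old control 1 (log2 0.92, adjusted p = 0.0916).

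**Figure D3:**
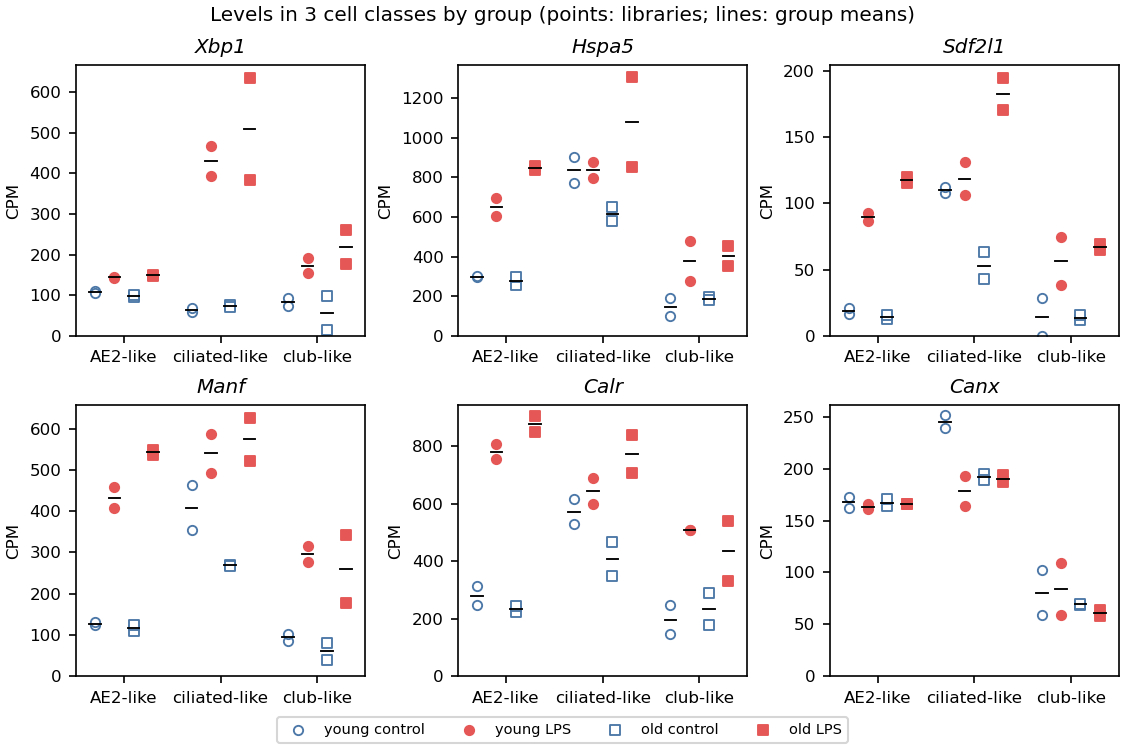
CPM of Xbp1, Hspa5, Sdf2l1, Manf, Calr and Canx in each library of the AE2-like, ciliated-like and club/secretory-like classes, on linear axes from 0, with 1 point per library, a line at each group mean and the 4 groups side by side. In ciliated-like cells Xbp1 goes from 59.1 to 74.9 CPM in controls to 383 to 635 after LPS, while Hspa5 of young mice stays between 772 and 904 CPM.

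Because the 4 groups of ciliated-like cells were ordered differently at the 2 ages, the ages were also tested alone, a choice made after these values were seen. In young mice 2 of 29 members rose, Xbp1 and Sec61b, and Hsp90b1 fell (5.29% and 3.3% of genes). DESeq2 called Xbp1 and Sec61b. In old mice 19 rose and 0 fell (5.72% and 3.54% of genes), and DESeq2 called 8. Of these 19 calls 7 held in every setting, 11 are lost without at least 1 of old control 1, old LPS 1 and old control 2, and the count is 9 without old control 1. The interaction called 2 members, beside 0.24% of genes in either direction, and DESeq2 called 1 of them, Hsp90b1. Sdf2l1 responded more in old mice by log2 1.59 (SE 0.30, adjusted p = 0.0132), a call lost without young control 1 or young LPS 1 (log2 1.44 to 1.63, adjusted p = 0.0582 to 0.0733). Hsp90b1, named here after its values were seen, had 1472 and 1623 CPM in young control, 1173 and 989 in young LPS, 1091 and 1163 in old control, and 1602 and 1397 in old LPS. Young LPS is below young control and old LPS above old control, and the responses differed by log2 0.93 (SE 0.18, adjusted p = 0.0132), a call lost without old control 1 (log2 0.89, adjusted p = 0.168). In the young, the log2 fold change of Hsp90b1 was -0.51 (SE 0.13, adjusted p = 0.00638), a call lost without young control 2 or young LPS 2 (log2 -0.44 to -0.39, adjusted p = 0.067 to 0.162). Over both treatments, old against young called 0 of 29 members in ciliated-like cells with edgeR (0.62% of genes). There 2 members had an unadjusted p under 0.05, Manf and P4hb, and DESeq2 called 0.

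Among the pathway lists in ciliated-like cells, 14 of 25 translocation and glycosylation genes rose and 1 fell over both ages. Beside this stand 9.61% of all genes higher and 7.71% lower. Of other lists, 6 of 23 folding genes, 3 of 17 integrated stress response genes and 3 of 17 export genes rose, and 2 rose and 2 fell of 18 degradation genes. Of the list headed by membrane-bound factors 1 of 7 rose. On lists this short, the counts of the integrated stress response, export, degradation and membrane-bound lists are near those shares. RNA from AE2 cells that is free in the suspension can enter these sums. Sftpc in ciliated-like cells stood at 1.97 to 6.64% of its AE2-like level in controls and at 4.4 to 7.96% after LPS. At that share the AE2-like Hspa5 level would give 32.5 to 54.9 CPM in the LPS libraries, of 799 to 1305 CPM measured. In the controls it would give 5.2 to 20.2 CPM. The Xbp1 level would give 6.38 to 11.3 CPM after LPS, of 383 to 635 measured, and 1.92 to 7 in controls. For Manf the values would be 22 to 36.3 CPM after LPS and 2.25 to 8.73 in controls. Those of Calr would be 39 to 63.9 and 4.53 to 20.8 CPM, and those of Sdf2l1 4.68 to 7.36 and 0.257 to 1.43 CPM. The part of free RNA in the members' changes was not tested.

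In club/secretory-like cells, a secretory class of the airways, 11 of the 22 tested members rose after LPS over both ages and 0 fell (10.1% and 4.07% of 1818 genes). The median was 0.88 for the members and 0.03 for all genes. By edgeR 15 had an unadjusted p under 0.05, DESeq2 called 6, and 3 calls (Hspa5, Manf and Calr) held in every setting. With the lane as a block 13 members were called (348 genes, against 258 without it), the added ones being Pdia4 (log2 1.20, adjusted p = 0.0345) and Dnajb9 (log2 1.28, adjusted p = 0.0495). With the 10 most abundant genes left out of the scaling, the median of all genes shifts by 0.23 in this comparison. All 4 LPS libraries lay above all controls for 14 members (12.5% of genes) and below for 0 (6.44%). The class has 5 cells in young control 2 and 8 each in young LPS 2 and old control 2, so single UMIs weigh heavily there. Its median of 14780 to 22920 UMIs per cell lies above that of the AE2-like class in every library, and the part of doublets in it was not tested beyond leaving out the 3% highest doublet scores.

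Manf in club/secretory-like cells had 86.0 and 103 CPM in young control, 316 and 277 in young LPS, 80.9 and 38.9 in old control, and 343 and 177 in old LPS. All LPS libraries exceed all controls for Manf, which rose by log2 1.87 (SE 0.28, adjusted p = 0.000525). Hspa5 had 98.3 and 192 CPM in young control, 480.0 and 277 in young LPS, 194 and 179 in old control, and 455 and 355 in old LPS. The treatments of Hspa5 do not overlap, and Hspa5 rose by 1.34 (SE 0.24, adjusted p = 0.00187). Calr had 246 and 147 CPM in young control, 509 and 508 in young LPS, 178 and 288 in old control, and 541 and 329.6 in old LPS. Old LPS 2 is only slightly above old control 2, and Calr rose by 1.11 (SE 0.22, adjusted p = 0.0049).

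Herpud1 had 61.4 and 44.2 CPM in young control, 147 and 122 in young LPS, 80.9 and 62.2 in old control, and 161 and 137 in old LPS. Controls and LPS libraries of Herpud1 stand apart, and Herpud1 rose by 1.15 (SE 0.25, adjusted p = 0.0063), a call lost without young LPS 1 (log2 1.02, adjusted p = 0.0539). Hsp90b1 had 168 and 206 CPM in young control, 344 and 367 in young LPS, 198 and 179 in old control, and 364 and 267 in old LPS. It rose by 0.85 (SE 0.19, adjusted p = 0.00742), with no overlap, and the call is lost without old LPS 1 (log2 0.68, adjusted p = 0.0652). Sdf2l1 had 28.7 and 0 CPM in young control, 74.5 and 38.6 in young LPS, 12.1 and 15.6 in old control, and 69.6 and 64.8 in old LPS. It rose by 1.91 (SE 0.43, adjusted p = 0.00812), a call lost without young LPS 1 or old control 1 (log2 1.51 to 1.79, adjusted p = 0.058 to 0.121).

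The other 5 calls in club/secretory-like cells were Xbp1, Dnajb11, Pdia3, Pdia6 and Sec61b, with log2 fold changes from 0.65 to 1.44. Xbp1 is lost in 4 removals (young control 1, young LPS 1, old LPS 1 or young control 2), Dnajb11 in 3 (young control 1, young LPS 1 or old LPS 1), and Pdia3, Pdia6 and Sec61b in 5 each. For Pdia3 and Pdia6 these are young control 1, young LPS 1, old control 1, old LPS 1 and young control 2. For Sec61b they are young control 1, old control 1, old LPS 1, young LPS 2 and old control 2. Without young LPS 1 the count is 5. Old against young called 0 of 22 members with edgeR, 0 had an unadjusted p under 0.05, and DESeq2 called 0. Over all genes of the class that comparison also called 0 (0% of genes, 101 with an unadjusted p under 0.05, 0 by DESeq2). Of the pathway lists, 6 of 21 translocation genes, 4 of 11 export genes, 2 of 10 folding genes, 2 of 6 integrated stress response genes and 1 of 7 degradation genes rose, beside 10.1% of all genes. The 1 gene tested of the list headed by membrane-bound factors was not called. On lists this short, 1 of 7 and 2 of 10 are near that share.

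Whether the classes responded differently was tested within libraries, as the LPS response of one class minus that of the other over both ages. For ciliated-like minus AE2-like cells, 4 of 33 members were called higher and 11 lower (8.6% and 6.59% of 12242 genes), and the median was -0.11 beside 0.09 over all genes. DESeq2 called 11. In this fit the p-values rest on a spread pooled over genes. With the 10 most abundant genes left out of the scaling, the median of all genes shifts by -0.11.

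Xbp1 responded more in ciliated-like than in AE2-like cells, by log2 2.35 (SE 0.16, adjusted p = 1.66e-48), or 5.11-fold. Atf4 did so by 0.91 (SE 0.23, adjusted p = 0.00117), a call lost without young control 1 (log2 0.74, adjusted p = 0.0693), and Hyou1 by 0.89 (SE 0.32, adjusted p = 0.0373), a call lost in 6 of 8 removals, all but those of young control 1 and old LPS 2 (log2 0.38 to 1.34, adjusted p = 0.0583 to 0.635). Ern1 was also called (adjusted p = 0.023), but ciliated-like cells held 1 UMI of it over the 4 controls and 14 over the 4 LPS libraries, so no fold is given. That call is lost without old control 1, young control 2 or young LPS 2 (adjusted p = 0.0648 to 0.185). Of the 4 higher calls DESeq2 kept only that of Xbp1. The Atf4 and Ern1 calls are also lost after thinning, and the Ern1 and Hyou1 calls at 10% mitochondrial UMIs. Hyou1 is further lost without the 10 most abundant genes in the scaling, with no filter and without the 3% highest doublet scores.

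The 11 members called lower include 4 of the chaperone arm and both secreted ER proteins. Sdf2l1 responded less in ciliated-like cells by log2 -1.68 (SE 0.19, adjusted p = 6.35e-16), Creld2 by -1.18 (SE 0.16, adjusted p = 9.52e-12), Manf by -1.14 (SE 0.13, adjusted p = 2.26e-17) and Calr by -1.03 (SE 0.12, adjusted p = 2.15e-15). Hspa5 gave -0.86 (SE 0.12, adjusted p = 1.44e-11), Dnajb11 -0.82 (SE 0.16, adjusted p = 6.62e-06), Herpud1 -0.76 (SE 0.14, adjusted p = 1.05e-06) and Pdia3 -0.75 (SE 0.12, adjusted p = 7.85e-08). Hsp90b1 gave -0.62 (SE 0.11, adjusted p = 1.56e-06), and Derl2 -0.67 (SE 0.19, adjusted p = 0.00653) and Pdia6 -0.52 (SE 0.13, adjusted p = 0.00059), the last 2 each lost without old control 1 (log2 -0.61, adjusted p = 0.14 and -0.42, adjusted p = 0.0751). In the description of levels, the ciliated-like controls held 577 to 904 CPM of Hspa5 and 157 to 209 CPM of Creld2, beside 255 to 302 and 21.4 to 28.7 CPM in the AE2-like controls.

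**Figure D4:**
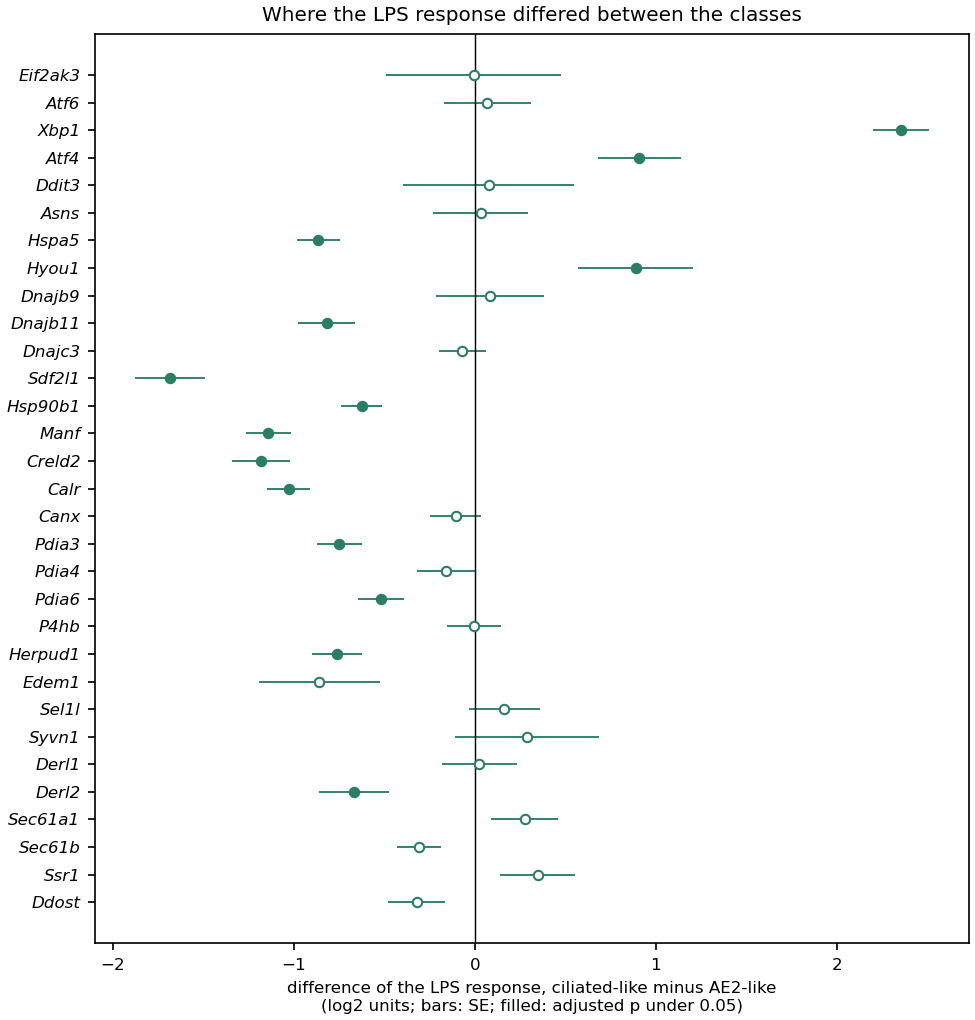
Log2 LPS response in ciliated-like cells minus that in AE2-like cells for 31 members with at least 20 UMIs in ciliated-like cells, with bars of 1 SE from edgeR and filled points where the adjusted p is under 0.05. Xbp1 stands at 2.35 on one side and Sdf2l1 at -1.68 on the other.

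For club/secretory-like minus AE2-like cells, 1 of 34 members was called, beside 1.35% of 10830 genes in either direction, and the median was 0.35 for the members and 0.34 for all genes. Xbp1 responded more in club/secretory-like cells by log2 1.17 (SE 0.30, adjusted p = 0.0105), a call lost without young LPS 1, old LPS 1 or old control 2 (log2 0.85 to 1.02, adjusted p = 0.281 to 0.383). By edgeR 4 members had an unadjusted p under 0.05 and DESeq2 called 0. The differences for Hspa5 (log2 0.28, SE 0.25, adjusted p = 0.827) and Manf (log2 0.14, SE 0.29, adjusted p = 0.984) missed the threshold, which does not show that the classes responded alike.

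As a share of all UMIs, the 34 members together made up 0.332 to 0.365% of the AE2-like sums in controls and 0.652 to 0.705% after LPS, so the treatments do not overlap. In ciliated-like cells the share was 0.573 to 0.726% and 0.727 to 0.951%, with young control 2 at 0.726% next to young LPS 1 at 0.727%. In club/secretory-like cells it was 0.174 to 0.224% and 0.308 to 0.446%. The share is led by abundant members such as Hspa5, Hsp90b1 and Calr, and it carries no test.

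**Figure D5:**
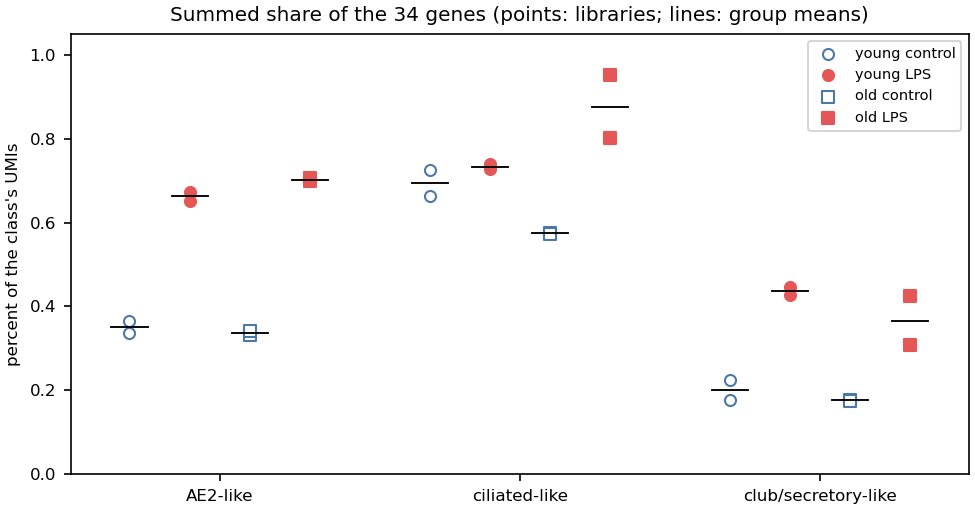
Share of UMIs taken by the 34 members together, in percent, for each library and class, with 1 point per library. AE2-like libraries go from 0.332 to 0.365% in controls to 0.652 to 0.705% after LPS, and the ciliated-like treatments nearly meet at 0.726 and 0.727%.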

How the data were processed

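Droplet single-cell RNA-seq (Chromium Single Cell 3′ v3) was analysed for 8 libraries, 2 per group. The authors deposited UMI counts per gene and barcode in 1 matrix per library (unit: counts, not normalized, 31053 gene rows, of which 30934 carry a symbol), per the file headers. The submitters' processing notes name Cell Ranger 3.1.0, STAR, bcl2fastq, Seurat 3.1.5 and 3.1, R 3.6.3 and the build mm10, without their roles.

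From these counts, barcodes with at least 500 genes and at most 20% mitochondrial UMIs were kept (11245 of 14048). The doublet caller marked 13 of them, too few for it to have worked. Those 13 were dropped, and an alternative left out the 3% highest scores. Cells were clustered with scanpy 1.11.5 and leidenalg 0.10.2 (2000 variable genes, 30 components, 20 neighbours, resolution 1), and clusters were named from marker lists. UMIs were summed per library and class and tested with edgeR 4.0.16 (R 4.3.3; expression filter, TMM scaling, robust quasi-likelihood test, all 4 groups in 1 fit with 4 residual degrees of freedom), with Benjamini-Hochberg adjustment over all genes tested and a threshold of 0.05. The fits held 11371 genes in AE2-like, 7907 in ciliated-like and 1818 in club/secretory-like cells. The difference of the LPS response between classes was an interaction with library as a block, where the prior degrees of freedom were infinite, so that p rests on a spread pooled over genes. On simulated counts of the same libraries, LPS was compared with control as the mean of both ages. In the 3 classes 83%, 71% and 34% of genes changed 2-fold were recovered, and 96%, 95% and 81% of those changed 4-fold. No other comparison was simulated, so these shares do not cover the comparisons within 1 age made in AE2-like cells.

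The replicate number is the lane, a batch that all 4 groups share. Same-lane deviations from the group means correlated at -0.0252 to 0.354 between groups in AE2-like, -0.031 to 0.0823 in ciliated-like and 0.139 to 0.346 in club/secretory-like sums. The main fits have no lane term, and the lane as a block was an alternative. The others were DESeq2 1.42.0 as scaling and as test, the scaling without the 10 most abundant genes, no filter, sums thinned to the smallest library, at most 10% mitochondrial UMIs, resolution 0.5, at least 10 cells per library, and each library left out.

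Given with every library's value were, per arm, the 2 members with the highest mean in AE2-like sums, the 8 called members of largest change there, and up to 6 called members by smallest p in each other class. Of each pathway list, called genes of at least 20 CPM with the largest changes were eligible, and a part of them is named. The members and lists were chosen with earlier results of these data known. Ddit3 has 2 Ensembl IDs in the tables, and the one with UMIs was used. Gene positions are those of GENCODE M21 on GRCm38, and start-site windows are RefSeq's on GRCm38.p6.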

Additional observations from a re-analysis of the deposited data

Results flagged for a closer look

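The results here are listed because a difference between 2 groups' LPS responses was itself past the threshold of edgeR's test. In ciliated-like cells the response of Sdf2l1 was larger in old than in young mice by log2 1.591, and that of Hsp90b1 by 0.930. This comparison was chosen after the values of the class were seen, so its p does not test a pattern set beforehand. Each of the 2 calls is lost in at least 1 alternative setting. Within lanes 1 and 2, the change of Sdf2l1 was log2 -0.03 and 0.22 in young and 1.62 and 1.99 in old mice. That of Hsp90b1 was -0.33 and -0.72 in young and 0.55 and 0.27 in old mice.

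The response of ciliated-like cells exceeded that of AE2-like cells for Xbp1 by log2 2.352, for Atf4 by 0.907 and for Hyou1 by 0.888. For Ern1 the fitted value was 4.624, which rests on 1 control UMI and is no measure of size. It was smaller for Sdf2l1 (-1.683), Creld2 (-1.182), Manf (-1.139), Calr (-1.028), Hspa5 (-0.864) and Dnajb11 (-0.817). It was also smaller for Herpud1 (-0.762), Pdia3 (-0.748), Derl2 (-0.665), Hsp90b1 (-0.624) and Pdia6 (-0.517). Club/secretory-like cells exceeded AE2-like cells for Xbp1 by log2 1.166, in a fit where the median of all genes was 0.338. That call is lost with DESeq2, after thinning, with at least 10 cells per library and in some removals of 1 library. The part of cluster makeup, free RNA and depth in these differences was not tested.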

How the results depend on the processing

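No member that was called changed its direction under any alternative tried. Counts that moved by over 1.5 times are given here, and their cause was not tested unless the setting itself removes UMIs or cells. In AE2-like cells the single lower call, Ern1 in young mice, became 0 without the 10 most abundant genes in the scaling, with no filter, with DESeq2, after thinning and at resolution 0.5. The single lower call in old mice, Sel1l, became 0 without those 10 genes, with DESeq2 and after thinning. Old over young LPS gave 0 members with DESeq2 and 1 after thinning (3 in the report). The AE2-like age by LPS interaction gave 1 member with DESeq2's size factors, without the 10 most abundant genes and at 10% mitochondrial UMIs, and 3 with no filter (0 in the report).

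With DESeq2 the genes called were 3024 for LPS in young AE2-like cells (4579 by edgeR), 42 for age in controls (74) and 206 for age after LPS (457). In ciliated-like cells they were 614 for LPS over both ages (1370), 303 in young (679), 265 in old (732), 18 for age (49) and 8 for the interaction (19). For LPS in club/secretory-like cells they were 149 (258), and 682 (1860) and 66 (146) for ciliated-like and club/secretory-like minus AE2-like cells. Members called higher with DESeq2 were 11 for LPS over both ages, 8 in old and 1 in the interaction in ciliated-like cells, 6 in club/secretory-like cells, and 1 and 0 in the class differences. The young ciliated-like lower call became 0.

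With no filter on low counts, genes called were 288 for age in controls, 862 for age after LPS and 312 for the interaction in AE2-like cells. They were 105 for age and 50 for the interaction in ciliated-like cells (5 members), and 391 for LPS and 2 for age in club/secretory-like cells. After thinning they were 821 for LPS over both ages and 408 in old mice in ciliated-like cells (11 members in old), 108 in club/secretory-like cells (3 members), and 1059 (2 members higher) and 52 (0 members) for the class differences. Without the 3% highest doublet scores the ciliated-like interaction gave 12 genes and 1 member. At 10% mitochondrial UMIs ciliated-like minus AE2-like cells gave 2 members higher. With at least 10 cells per library club/secretory-like minus AE2-like cells gave 0 members, and age in club/secretory-like cells 3 genes. In 150 bases before the start, 1 member held ERSE-II and 2 the ATF4 composite site.

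With the replicate block, the lower call in young AE2-like cells became 0, the AE2-like interaction gave 1 member, and age in club/secretory-like cells gave 5 genes. It also called Hyou1 in young AE2-like cells and Pdia4 and Dnajb9 in club/secretory-like cells, and changed no other call of a member. In the other comparisons fitted with the replicate block, counts stayed within 1.5 times.

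Leaving out each library in turn gave, in AE2-like cells, 2881 to 5258 genes for LPS in young mice, with 0 to 2 members lower, and 0 to 1 member lower in old mice. It gave 6 to 279 genes for age in controls, 157 to 1626 genes and 0 to 4 members for age after LPS, and 8 to 744 genes and 0 to 4 members for the interaction. In ciliated-like cells it gave 26 to 111 genes for age, and 366 to 811 genes, 2 to 7 members higher and 0 to 1 lower in young mice. There it gave 322 to 857 genes and 9 to 21 members in old mice, and 4 to 51 genes and 1 to 7 members for the interaction. LPS in club/secretory-like cells gave 129 to 268 genes and 5 to 11 members. Ciliated-like minus AE2-like cells gave 1199 to 1991 genes and 2 to 4 members higher, and club/secretory-like minus AE2-like cells 77 to 149 genes and 0 to 1 member. The small classes limit depth most, with 71191 UMIs in the smallest club/secretory-like sum.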
